A study of Mus musculus with 4 samples.

Results

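Peaks of the transcription factor p63 and of the histone mark H3K27ac were examined round Cdkn1a, Mdm2 and Sfn, 3 genes widely known as targets of the p53 family. The members are the peaks whose midpoint lay in 1 mm9 window per gene: chromosome 17:29130000-29340000 for Cdkn1a (210 kb), chromosome 10:117030000-117250000 for Mdm2 (220 kb) and chromosome 4:133050000-133260000 for Sfn (210 kb). The windows held 10 of the 4130 p63 peaks and 132 of the 183757 H3K27ac peaks. The genes were chosen by name, with the peaks at these loci already known, so the peak numbers in the windows are a description and carry no test.

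The lists come from primary epithelial progenitor cells of the salivary gland of adult p63 wild-type mice aged 12 weeks. There were 4 libraries in 4 groups of 1: a ChIP with the p63 antibody 4A4, a ChIP with an antibody to H3K27ac, and an input with no antibody for each. Titles of the p63 pair begin with PSECS and those of the H3K27ac pair with pSG, and whether both pairs came from 1 culture is not given. Each list is 1 ChIP set against its input, with no replicate, no read number and no score per peak, so the depth is unknown and no difference between libraries could be tested. The sources do not say how many animals gave the cells, and no mm9 positions of marker genes were at hand to check the cell type.

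p63 belongs to the same family as p53 and binds DNA through a closely related domain, at pairs of short sites built round C and G. In stratified and glandular epithelia it marks basal and progenitor cells. Cdkn1a encodes p21, an inhibitor of cyclin-dependent kinases that halts the cell cycle. Mdm2 encodes the ubiquitin ligase that drives the degradation of p53, and it carries an internal promoter that p53 activates. Sfn encodes 14-3-3 sigma, an epithelial 14-3-3 protein that holds back entry into mitosis. Acetylation of histone H3 at lysine 27 is found at active promoters and enhancers.

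The bases before the start of each gene are shown because p63 peaks lay near all 3 gene positions. They are the 250 bases upstream of the start in the RefSeq promoter table (build GRCm38.p6), written 5′ to 3′ on the strand of the gene. The Cdkn1a sequence is chr17:29090729-29090978 on the plus strand, the Mdm2 sequence chr10:117710759-117711008 on the minus strand and the Sfn sequence chr4:133602169-133602418 on the minus strand. These positions are on another build than the peaks and cannot be set against the peak positions given here. Capitals mark each pair of CATG, CAAG or CTTG with 6 bases between them, searched on both strands.
Cdkn1a: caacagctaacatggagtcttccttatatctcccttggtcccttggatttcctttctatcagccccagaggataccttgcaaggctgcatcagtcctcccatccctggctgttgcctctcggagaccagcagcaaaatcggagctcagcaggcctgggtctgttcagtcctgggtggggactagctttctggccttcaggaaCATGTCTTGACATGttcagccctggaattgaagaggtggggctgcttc
Mdm2: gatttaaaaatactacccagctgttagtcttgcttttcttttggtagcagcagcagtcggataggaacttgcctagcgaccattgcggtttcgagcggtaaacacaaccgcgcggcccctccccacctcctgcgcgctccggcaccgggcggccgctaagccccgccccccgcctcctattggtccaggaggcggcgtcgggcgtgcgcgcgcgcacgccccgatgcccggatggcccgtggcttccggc
Sfn: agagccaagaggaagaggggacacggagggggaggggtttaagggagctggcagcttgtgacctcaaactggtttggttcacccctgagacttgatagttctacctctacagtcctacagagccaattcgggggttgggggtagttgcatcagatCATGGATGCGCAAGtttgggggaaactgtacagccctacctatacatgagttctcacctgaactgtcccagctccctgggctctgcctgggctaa

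The Cdkn1a sequence held 1 such pair, 48 to 35 bases before the start, and the Sfn sequence held 1, 95 to 82 bases before it. The Mdm2 sequence held none, and neither did that of a second Cdkn1a start listed 2790 bases further downstream. Of all 32851 promoters in the table, 3.85% held at least 1 pair. In the looser form CNNGNNNNNNCNNG, the first Cdkn1a sequence held 2 matches, the Mdm2 sequence 4 and the Sfn sequence 2, and 63.5% of all promoters held 1 or more. A match describes letters only, and matches of the looser form may overlap each other and include the stricter ones. Sequence inside Mdm2 and Sfn, including the internal Mdm2 promoter, was not searched. The lack of a pair before the Mdm2 start therefore says nothing about the p63 peak inside that gene.

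p63 peaks stood at or close to the start of Cdkn1a and of Mdm2 and the single position known for Sfn. The Cdkn1a window held most of the p63 peaks. There were 6 p63 peaks in the Cdkn1a window (exact Poisson 95% interval 2.2 to 13.1), 2 in the Mdm2 window (interval 0.242 to 7.22) and 2 in the Sfn window (interval 0.242 to 7.22). The intervals cover counting error only, treat peaks as independent and overlap. Overlap is not a test, and differences between the loci in these counts were not tested. Within 10 kb of the gene start lay 3 of the 6 peaks at Cdkn1a, both peaks at Mdm2 and both at Sfn. Gene positions are known here only to the nearest 1 kb: 29.228 to 29.238 Mb for Cdkn1a, 117.126 to 117.148 Mb for Mdm2 and 133.156 Mb for Sfn. Distances below are from p63 midpoints to these positions, taken at the 5′ end for Cdkn1a (plus strand) and Mdm2 (minus strand). The second Cdkn1a start, further downstream, was not used for distances. Sfn, a gene of 1.6 kb in RefSeq, is on the minus strand and has only 1 position. Which end of the gene it marks is not given. For Sfn peaks and cover, the words start, upstream and downstream refer to that position, which may not be the 5′ end.

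**Figure D1:**
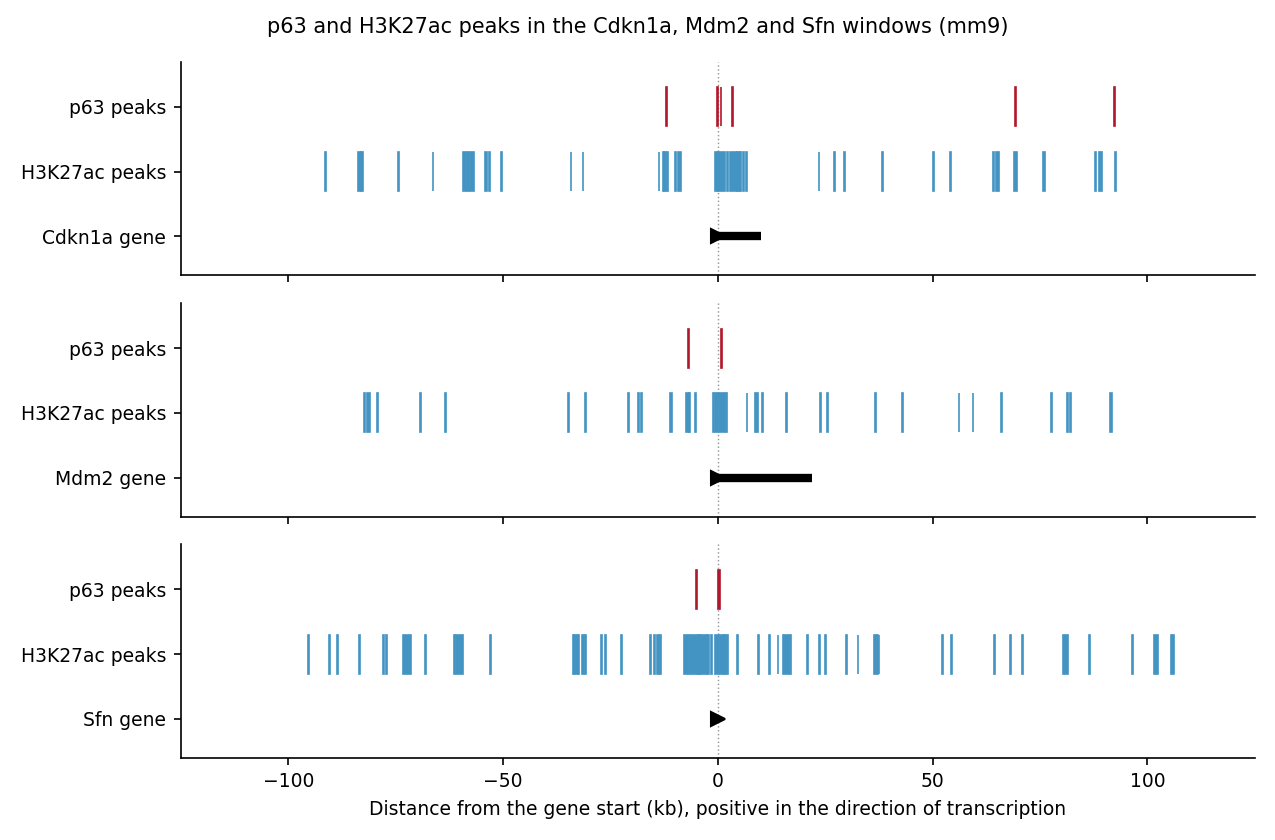
p63 peaks (red), H3K27ac peaks (blue) and the gene (black, triangle at its start) by distance from the gene start in kb, positive in the direction of transcription; each bar is 1 peak. The 6 p63 peaks of Cdkn1a run from 12.0 kb upstream to 92.3 kb downstream, and the 2 of Mdm2 and the 2 of Sfn lie within 10 kb of the triangle. For Sfn the triangle marks the single known position, which may not be its start.

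At Cdkn1a, 3 p63 peaks stood in a row over the first part of the gene. The first, at chromosome 17:29227771-29228009 (239 bases), lay 0.1 kb upstream of the start, a distance below the precision of the gene position. All of it fell inside an H3K27ac peak of 662 bases, and both peaks ended on the same base, 29228009. The second, at 29228680-29228807 (128 bases), lay 0.7 kb inside the gene and within the widest H3K27ac peak of the window, 29228113-29229743 (1631 bases). The third, at 29231350-29231528 (179 bases), lay 3.4 kb inside and within the next widest, 29230744-29232371 (1628 bases). Among all H3K27ac peaks, 0.53% were at least 1631 bases wide.

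The first and second of these midpoints were 854 bases apart, and all 3 spanned 3549 bases. In the whole p63 list 9 sets of 3 successive midpoints, this one included, were as close. Together they held 23 of the 4130 peaks (0.557%). The other p63 peaks of the Cdkn1a window stood apart. The peak at 29215903-29216101 (199 bases), 12.0 kb upstream, shared 37 bases with an H3K27ac peak of 447 bases and reached 162 bases into the gap beyond it. The peak at 29297070-29297317 (248 bases), 69.2 kb downstream, lay inside an H3K27ac peak of 649 bases. The peak at 29320267-29320386, 92.3 kb downstream, measured 120 bases, the narrowest width that occurs in the list. It was the single member that shared no base with H3K27ac, missing the nearest peak (193 bases) by 78 bases.

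At Mdm2, 1 p63 peak stood just inside the gene and 1 before it. The peak at chromosome 10:117147021-117147283 (263 bases) had its midpoint 0.8 kb downstream of the start, inside the widest H3K27ac peak of the window, 117146396-117147791 (1396 bases). In the p63 list 10.2% of peaks were at least as wide. The peak at 117154692-117154940 (249 bases) lay 6.8 kb upstream and shared 175 bases with an H3K27ac peak of 677 bases, while 74 of its bases fell in a gap of 112 bases between 2 H3K27ac peaks. At the precision of the gene position, the start lay at the edge of a further H3K27ac peak, 117148019-117148702 (684 bases), which held no p63 peak. The third in width among those that touch the gene, 117145825-117146115 (291 bases), held none either.

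At Sfn, 1 p63 peak lay at the gene and 1 further upstream. The peak at chromosome 4:133155534-133155950 was 417 bases wide, the widest member, and 0.484% of the p63 list was at least as wide. Its midpoint lay 0.3 kb downstream of the gene position, a distance within the precision of that position. It bridged a gap of 188 bases between H3K27ac peaks of 911 and 908 bases and shared 229 bases with them in sum. The peak at 133160901-133161144 (244 bases) lay 5.0 kb upstream, wholly inside an H3K27ac peak of 1784 bases at 133160719-133162502.

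**Figure D2:**
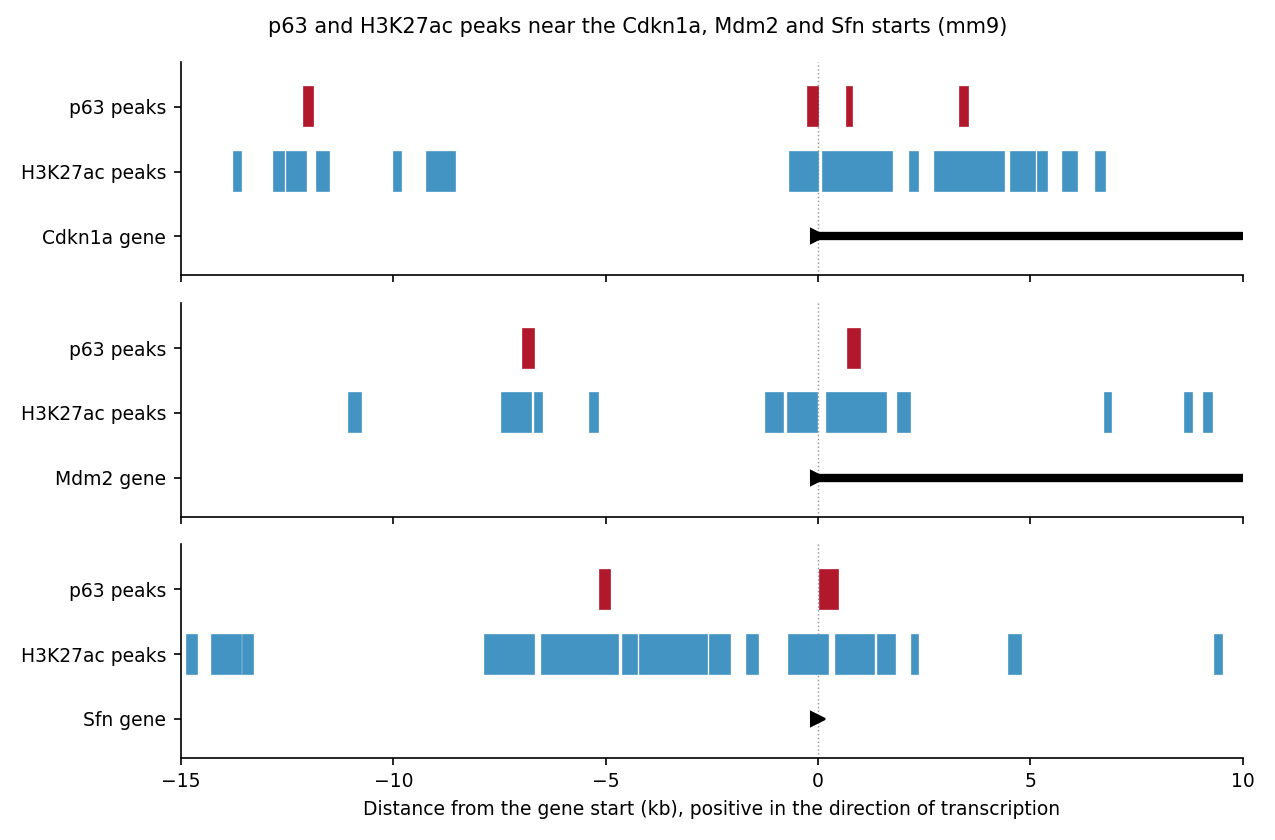
The same maps from 15 kb before to 10 kb past the gene start (kb on the horizontal axis). Red p63 bars over the first 5 kb of Cdkn1a sit on wide blue H3K27ac bars. The p63 bar at the single known Sfn position bridges a gap of 188 bases between 2 H3K27ac peaks.

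Most p63 peaks of the 3 loci lay in acetylated stretches. In all, 9 of the 10 members overlapped an H3K27ac peak by 1 base or more, and 34.8% of the 4130 p63 peaks did. All 10 had H3K27ac within 1 kb (at most 1000 bases between the peaks), against 68.4% of the list. The share of bases covered by H3K27ac within 1 kb of the p63 midpoint had a median of 74.2% over the members and 13.2% over the list (quartiles 0.0 and 38.7%). Within 5 kb the medians were 36.2% for the members and 6.32% for the list. These are descriptions, since the loci were picked with the peaks known and neighbouring members share their surroundings. The list was not matched to the members for distance from a gene start, and active gene starts in general carry this mark.

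The members differed among themselves in this cover. It was highest at the Cdkn1a peak 0.7 kb inside the gene, with 1897 of the 2000 bases round it covered (94.8%), a level that 1.16% of the p63 list reached. The Sfn peaks had 1808 bases (90.4%) upstream and 1754 bases (87.7%) at the gene. The Cdkn1a peak 3.4 kb inside had 1628 bases (81.4%), the Mdm2 peak inside the gene 1529 bases and the Cdkn1a peak at the start 1439 bases. Lower were the Cdkn1a peak 12.0 kb upstream, with 959 bases, the Mdm2 peak 6.8 kb upstream, with 827 bases, and the Cdkn1a peak 69.2 kb downstream, with 649 bases. The lowest was the Cdkn1a peak 92.3 kb downstream, with 193 bases (9.65%), below the median of the list. The 6 highest values thus all belonged to peaks within about 5 kb of a gene start, and the 4 lowest to peaks further out.

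Width did not follow the same order. The members had a median width of 241.5 bases, and the list 181. The narrow Cdkn1a peak with the densest acetylation measured 128 bases, and 86.6% of the list was at least as wide.

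**Figure D3:**
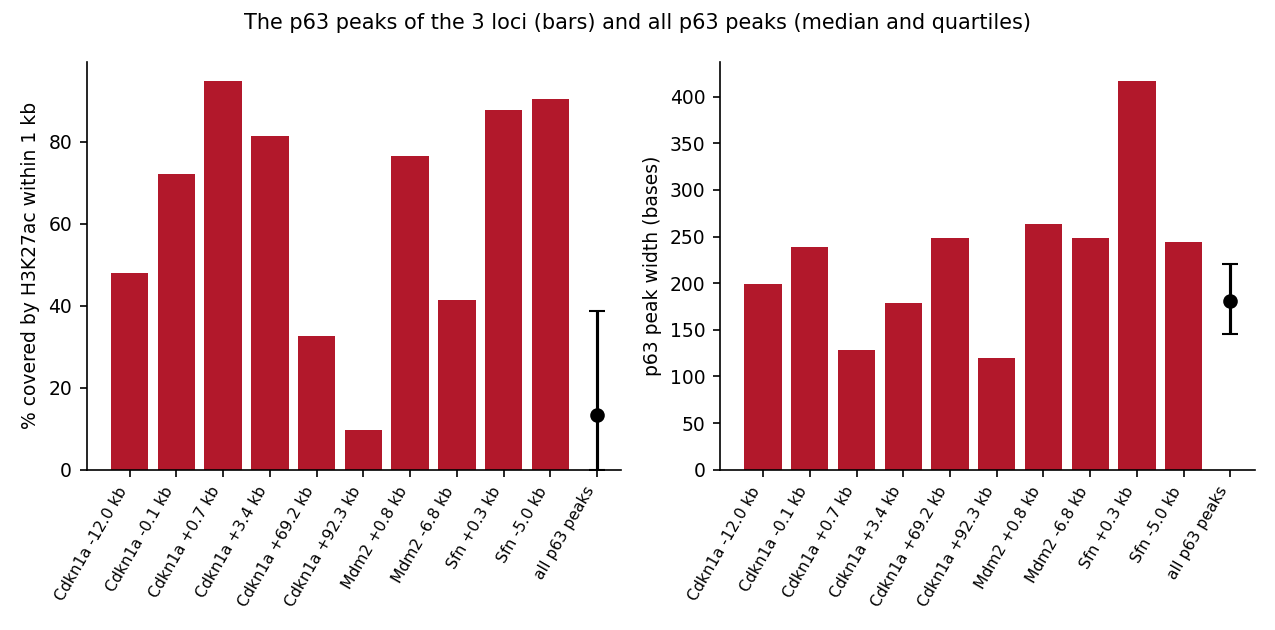
Bars give, for each of the 10 p63 peaks of the 3 loci, the percentage of bases within 1 kb covered by H3K27ac (left) and the peak width in bases (right); the black point and whiskers give the median and quartiles of all 4130 p63 peaks. Cover exceeds the upper quartile of the list, 38.7%, in 8 of the 10 bars, and width runs from 120 to 417 bases.

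In each window acetylation was denser within 5 kb of the gene start (for Sfn, its single position) than over the window as a whole. Within 5 kb on either side of the start, H3K27ac covered 4568 bases (45.7%) at Cdkn1a, 2786 bases (27.9%) at Mdm2 and 5567 bases (55.7%) at Sfn. That was 6.12, 6.34 and 4.54 times the cover of the whole window at Cdkn1a, Mdm2 and Sfn. Of the 263759 tiles of 10 kb in the genome, 0.158% held at least the cover round the Cdkn1a start, 0.579% that of Mdm2 and 0.083% that of Sfn, while 60.7% held no H3K27ac at all. Active gene starts in general carry this mark, and the tiles are mostly not centred on a gene, so these shares were not compared with those of other active genes.

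The cover was unevenly placed about the position taken as the start. At Cdkn1a it was 13.1% in the 5 kb upstream and 78.3% in the 5 kb downstream of the first start. The second Cdkn1a start is listed 2790 bases further downstream, inside the second of these stretches. Cover about that start was not computed, so the Cdkn1a imbalance holds for the first start only. At Mdm2 the cover was 22.0% upstream and 33.7% downstream. About the single Sfn position the order was the other way, with 72.4% upstream and 39.0% downstream. Which end of Sfn that position marks is not given, so the order about the Sfn start itself is not known. The Sfn bins are counted from the same position. In 10 kb bins, the fullest bin of Cdkn1a was the first 10 kb downstream of the start (47.6%), that of Mdm2 also the first 10 kb downstream (21.8%, with 21.1% in the 10 kb upstream), and that of Sfn the 10 kb upstream (62.7%). The next fullest bins reached 27.2% at Cdkn1a, 50 to 60 kb upstream, and 22.1% at Sfn, 70 to 80 kb upstream. Of 20 bins per locus, 4 were empty at Cdkn1a, 3 at Mdm2 and 2 at Sfn.

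**Figure D4:**
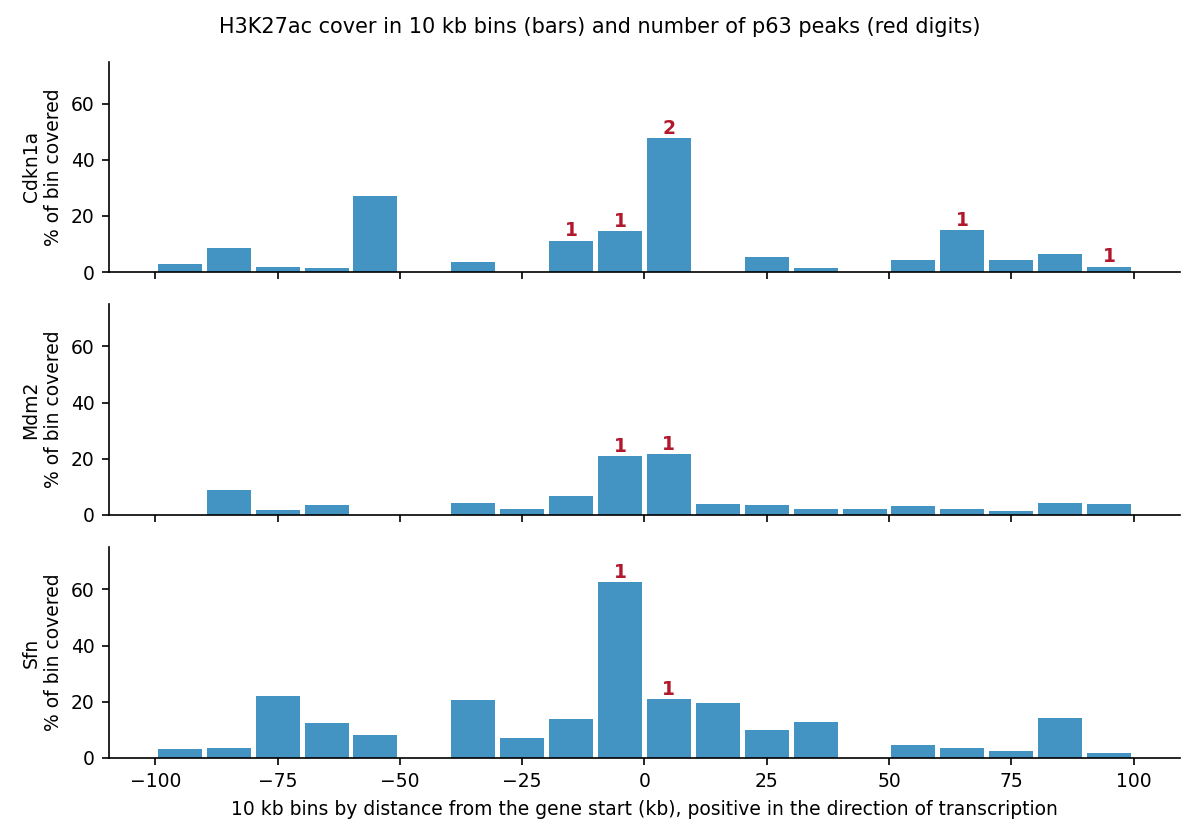
Bars give the percentage of each 10 kb bin covered by H3K27ac peaks, by distance from the gene start in kb, and red digits the number of p63 peaks in the bin. The tallest bars are 47.6% at Cdkn1a and 21.8% at Mdm2, both just downstream of the start. At Sfn the tallest is 62.7%, just upstream of its single known position, which may not be its start.

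Joined across gaps of at most 1000 bases, the H3K27ac peaks at each gene start formed 1 domain per gene. The Cdkn1a domain, chromosome 17:29227348-29234751, spanned 7404 bases with 8 H3K27ac peaks, of which 73.2% was covered, and held 3 p63 midpoints. Of the 24666 domains of 2 or more H3K27ac peaks in the list, 7 held 3 or more p63 midpoints, and the most in any was 5. The Cdkn1a domain is among these 7 and set the limit of 3. Longer domains have more room for p63 peaks, and span was not matched. The Sfn domain, chromosome 4:133153639-133163839, was longer, at 10201 bases with 10 H3K27ac peaks and 2 p63 midpoints. The Mdm2 domain, chromosome 10:117145825-117149234, spanned 3410 bases with 4 H3K27ac peaks and 1 p63 midpoint. The median domain spanned 1217 bases, and 1.14% of domains spanned at least as much as that of Cdkn1a, 0.495% as that of Sfn and 7.74% as that of Mdm2. In the list 93 domains held 2 or more p63 midpoints.

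Most acetylated stretches held no called p63 peak, in the windows and in the list as a whole. Of the domains, 2 of 8 held a p63 midpoint in the Cdkn1a window, 2 of 6 in the Mdm2 window and 1 of 9 in the Sfn window, and 1363 of the 24666 domains of the list did. By single peaks, 5 of 41 H3K27ac peaks shared a base with p63 at Cdkn1a (12.2%), 2 of 34 at Mdm2 (5.88%) and 3 of 57 at Sfn (5.26%), and 0.839% of the whole list did. The H3K27ac peaks that shared a base with p63 had a median width of 662 bases against 209 for the others at Cdkn1a, 1036.5 against 190.5 at Mdm2 and 911 against 229 at Sfn. The widths overlapped: peaks without p63 reached 846 bases at Cdkn1a, 684 at Mdm2 and 1825 at Sfn, while the narrowest with p63 measured 447, 677 and 908 bases at the same genes. A wider peak has more bases with which to meet a p63 peak, and this was not adjusted for.

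The widest H3K27ac peak of the Sfn window lay far from p63. It was chromosome 4:133227471-133229295 (1825 bases), 72.4 kb upstream of the gene position and 66326 bases from the nearest p63 peak. The third widest, 133158616-133160182 (1567 bases), lay between the Sfn p63 peaks, 718 bases from the closer one. In the Cdkn1a window the third widest, chromosome 17:29168640-29169485 (846 bases), lay 58.9 kb upstream and 46417 bases from p63. At the lower edge of the Sfn window, a domain of 14460 bases with 19 H3K27ac peaks at 133036070-133050529 ran across the edge and held no p63 midpoint.

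Set against the whole genome, the 3 windows ranked differently for p63 and for H3K27ac. Cdkn1a ranked highest for p63, with 3 peaks left of 6 in the widest 50% of the p63 list against 2 of 2 at Mdm2 and at Sfn. Of the 12550 tiles of 210 kb, 12 (0.0956%) held 6 or more p63 peaks, the fullest held 11, and 77.6% held none. The Cdkn1a p63 peaks themselves fall within a single tile, which is among these 12. At least 2 p63 peaks stood in 7.51% of the 11978 tiles of 220 kb, the length of the Mdm2 window, and in 6.99% of the 210 kb tiles, the length of the Sfn window. For H3K27ac the order was Sfn, Cdkn1a and Mdm2 as deposited, but by peak number Mdm2 stood above Cdkn1a when peaks were joined (26 against 23) and in the middle 50% of the windows (24 against 22). Sfn had 57 H3K27ac peaks (exact Poisson 95% interval 43.2 to 73.9), a number reached by 1.56% of tiles, Cdkn1a had 41 (interval 29.4 to 55.6; 6.0% of tiles) and Mdm2 had 34 (interval 23.5 to 47.5; 11.3% of tiles). The intervals of all 3 loci overlap each other, which is not a test, and differences in H3K27ac peak number were not tested. H3K27ac covered 12.3% of the Sfn window, a level reached by 0.733% of tiles, 7.46% of the Cdkn1a window (3.34% of tiles) and 4.39% of the Mdm2 window (10.4% of tiles). The median tile of 210 kb held 10 H3K27ac peaks and 0.998% cover. The windows are centred on named genes and the tiles are not, which was not matched here.

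**Figure D5:**
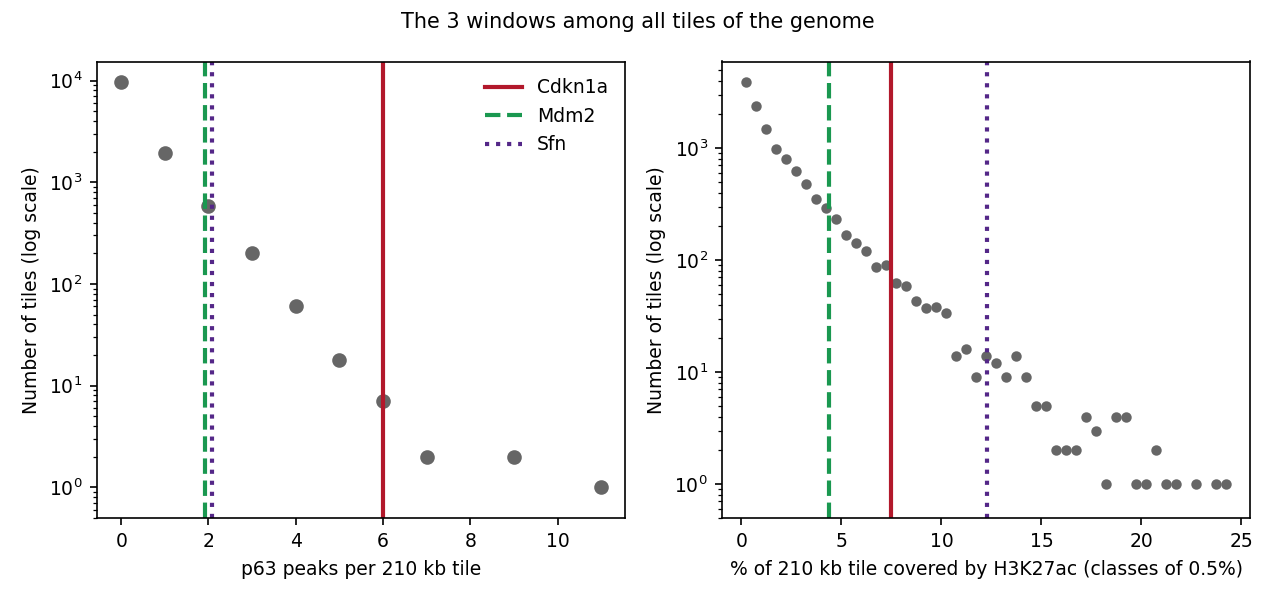
Grey points give the number of 210 kb genome tiles (log scale) with each number of p63 peaks (left) and in each class of H3K27ac cover in percent (right); vertical lines mark the 3 windows, that of Mdm2 being 220 kb long. Cdkn1a stands at 6 p63 peaks and 7.46% cover, Mdm2 at 2 and 4.39%, and Sfn at 2 and 12.3%.

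Per 100 H3K27ac peaks there were 14.6 p63 peaks at Cdkn1a, 5.88 at Mdm2 and 3.51 at Sfn. The whole lists held 4130 p63 peaks and 183757 H3K27ac peaks, a lower ratio than at each of the 3 loci. Mdm2 and Sfn had the same p63 count, so the order of their ratios was set by their H3K27ac peak numbers alone. With 2 p63 peaks at Mdm2 and at Sfn, the counting error of the locus ratios is large, and their difference was not tested. Among tiles with at least 1 p63 peak, an alternative chosen after seeing the data, 0.427% held 6 or more, and 2.81% reached the H3K27ac cover of Sfn, 11.6% that of Cdkn1a and 31.1% that of Mdm2.

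No p63 peak lay just outside the windows. The nearest beyond the edges were 199 kb above and 652 kb below at Cdkn1a, 899 kb below and 3800 kb above at Mdm2, and 66.5 kb below and 112 kb above at Sfn. The nearest H3K27ac peaks beyond the edges were much closer, 3.95 kb or less at each edge of the 3 windows.

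Other genes share these windows, and no peak is assigned to a gene here. In the gene order of the RefSeq table (GRCm38.p6), Cdkn1a stands between Srsf3, which encodes a splicing factor, and Rab44, which encodes a Rab GTPase. Mdm2 stands between Cpm, which encodes a carboxypeptidase, and Slc35e3, with Nup107, a nuclear pore gene, next. Sfn stands between Gpn2 and Zdhhc18, with Arid1a, which encodes a chromatin remodelling subunit, the third gene on the Zdhhc18 side. Which of the outlying H3K27ac peaks belong to these genes was not tested, and neither RNA levels nor the response of the 3 genes to loss of p63 was measured in these libraries.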

How the data were processed

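p63 and H3K27ac ChIP-seq peak lists of salivary epithelial progenitor cells were analysed, with 1 ChIP and 1 input library each. The deposited lists hold chromosome, start and end, and no other value. Per the submitters' processing notes, Bowtie 1.1.1 and MACS2 2.1.0 were used and the build was mm9; the threshold and the filters are not given here. Depth is therefore unknown. As a check of the build, 1072 H3K27ac peaks on chromosome 7 had positions beyond every gene that GRCm38 lists there. Starts are printed counted from 1.

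Peaks were placed by midpoint, and overlap needed 1 shared base. The windows, gene positions and lists were chosen with earlier results of these data known. Every p63 peak in the windows is named; of H3K27ac peaks, the 3 widest per window, the one nearest each p63 peak and those touching the gene (if more than 6, the widest 3). In place of random windows, all tiles of equal length from the start of each chromosome to its last peak were used, so no draw was made and no p-value is given. No mm9 annotation was used, so other p53-family targets and marker genes were not placed. The interval functions were tested on simulated data. Figures were drawn with matplotlib 3.10.9 and values computed with scipy 1.17.1, pandas 2.3.3 and numpy 2.4.6 under Python 3.11.15.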

Additional observations from a re-analysis of the deposited data

How the results depend on the processing

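Over 21 values and 72 alternatives, 41 stayed within the limits set and 31 moved past them. The limits were 1.5 times for peak numbers and the Wilson 95% interval for percentages. For the percent of a window covered, each base counted as 1 trial although bases come in whole peaks. That interval is therefore too narrow, and every alternative for that value moved past it. None of the 72 changed a direction, since none has one. With the widest 50% of the p63 list, Cdkn1a kept 3 p63 peaks in place of 6, while Mdm2 and Sfn kept 2 each. When the p63 midpoint had to lie inside H3K27ac, 1 of 2 Sfn peaks overlapped. H3K27ac peak numbers were 23 (Cdkn1a) and 35 (Sfn) after joining peaks at most 1 kb apart, 26 (Cdkn1a) and 18 (Mdm2) with the widest 50% of the list, and 22 (Cdkn1a) and 37 (Sfn) in the middle 50% of the window. H3K27ac cover was 8.41% (Cdkn1a), 6.45% (Mdm2) and 16.0% (Sfn) in the middle 50% of the window, and 6.33%, 3.2% and 11.2% at the same genes with the widest 50% of the list. Fewer peaks or bases were counted in each of these settings by construction. The percent covered nevertheless rose in the middle 50% of each window, where the window length was cut as well. Over the whole windows it was 7.46% (Cdkn1a), 4.39% (Mdm2) and 12.3% (Sfn).

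The share of tiles reaching a window's value moved most among tiles with p63, chosen after seeing the data. For p63 peaks it was 0.427% (Cdkn1a), 32.3% (Mdm2) and 31.2% (Sfn), for H3K27ac peaks 19.8%, 33.1% and 5.73%, and for cover 11.6%, 31.1% and 2.81%, in the same gene order. Among tiles with H3K27ac, the Mdm2 shares were 8.03% (p63 peaks), 12.1% (H3K27ac peaks) and 11.1% (cover), the Cdkn1a share for H3K27ac peaks was 6.43% and the Sfn share for p63 peaks 7.48%. On autosomes the Mdm2 shares were 12.0% (H3K27ac peaks) and 11.0% (cover). Tiles shifted by 50% of their length gave 1.8% for the H3K27ac peaks of Sfn. In each of these settings for the windows Sfn stood highest for H3K27ac and Cdkn1a for p63 among the 3 windows. No paired analysis was possible because neither ChIP has a second library. Motif matches had no alternative. Depth is unknown, so a site without a called peak is not shown to lack p63 or acetylation.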
